A study of Mus musculus with 8 samples.

Results

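Cells that had received an adipogenic cocktail were set against cells that had not, in the mouse line 3T3-L1, fibroblast-like preadipocytes (strain given as Swiss albino) that hormones can turn into fat cells. Treated cells were taken at clonal expansion, 10 hours after induction, and at differentiation, 6 days after it. Untreated cells were taken in exponential proliferation and in quiescence, after 48 hours at confluence. RNA-seq was made from 2 libraries per stage, so 4 treated libraries stood against 4 untreated ones. The cocktail held insulin (5 µg/µl), dexamethasone (1 µM) and isobutylmethylxanthine (0.25 mM) for 48 hours, after which the protocol names insulin alone, so by the protocol the 2 treated stages did not share dexamethasone and isobutylmethylxanthine at the time of sampling. All groups grew in DMEM with 10% serum. The untreated groups also differ from the treated ones in time in culture and, for proliferation, in density, and these cannot be told apart from the cocktail. The labels do not say whether the libraries of a stage came from separate cultures, so p-values reflect library-to-library spread alone, part or all of which may be technical.

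The genes described were those in which all 4 treated libraries lay beyond all 4 untreated ones, among genes with a mean of at least 10 pseudo-counts over the 8 libraries. Pseudo-counts are read counts as rescaled by the authors with edgeR. They are labelled as RLE-scaled, a scaling that does not set library totals equal. Of 22798 genes in the table, 14647 reached that mean, and 4931 of them (33.7% of those tested) met the rule. Treated libraries were higher for 2472 genes (16.9%) and lower for 2459 (16.8%), and the ranges overlapped for the other 9716. A further 498 genes below the mean of 10 did not overlap either, 16 of them under 1 in every library, and are not described. The rule used the same values as the comparison, so the separation of these genes is a description and not in itself a result.

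The 3 agents reach the nucleus by different routes. Dexamethasone activates the glucocorticoid receptor, a transcription factor that binds DNA directly. Isobutylmethylxanthine blocks phosphodiesterases and so raises cyclic AMP, which activates protein kinase A and the transcription factor CREB. Insulin acts through its receptor, IRS proteins and the kinases PI3K and AKT on glucose uptake, lipid synthesis and translation. In preadipocytes these signals induce C/EBP-beta and C/EBP-delta first, then PPAR-gamma and C/EBP-alpha, which switch on the genes of lipid storage, while actin stress fibres and fibrous matrix are taken down.

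The deposited values summed to 146570940 to 151529060 pseudo-counts in treated libraries and 122413485 to 127369893 in untreated ones, without overlap. An exact permutation test over libraries gave a two-sided p = 0.0286, the smallest that 4 against 4 can give. It treats libraries as independent, though they are 2 from each of 4 stages and treatment differs only between stages. It is thus no test over stages. The difference in totals bears on every direction below. As deposited, the median gene differed by 0.03 on the log2 scale between treated and untreated stages. With all libraries brought to the same total, which replaces the authors' scaling, it differed by -0.23. Non-overlapping genes then numbered 1409 higher and 3753 lower, and with quantile normalization 2215 and 2700, so small rises depend on the scaling. The 2 libraries of a stage had a median absolute log2 difference of 0.128 at clonal expansion, 0.129 at differentiation, 0.149 at proliferation and 0.214 at quiescence. Of 38 fat cell markers tested, 37 were called higher in the treated stages. At differentiation alone 37 were higher, which fits its label. At clonal expansion alone 20 were higher and 8 lower than the untreated stages, so the markers are no check of that label. In bulk RNA, a change in the number of cells of one kind and a change in RNA per cell cannot be told apart.

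In limma's test of treated minus untreated stages over all 14647 genes, 5345 were higher (36.5%) and 5024 lower (34.3%) at a Benjamini-Hochberg adjusted p under 0.05. These calls included 2463 of the 2472 higher non-overlapping genes and 2441 of the 2459 lower ones. The rule used the same values, which largely fixes these counts, so nothing is read from them. Genes named for wide gaps were likewise picked on the values that their adjusted p-values test. A further 2882 higher and 2583 lower calls fell on genes whose ranges overlapped. List counts below of genes that rose or fell are to be read beside the 36.5% and 34.3% of all genes called. With the same total per library the test called 3626 higher and 6970 lower, and with the stages of an arm pooled, so that differences between stages count as spread, 1731 and 1896. Of 147 tested genes named in the text, 35 were then no longer called. Those with non-overlapping ranges were Acsl1, Acta2, Ang, Ccl2, Ccnd3, Cidec, Col1a1, Dgat2, Ghrh, Grem1, Hsd11b1, Ifi204, Igfbp4, Ints3, Krt19, Mlxipl, Nr4a3, Pde3b, Thrsp and Uqcrfs1. The median log2 difference was 0.87 among the higher non-overlapping genes and -1.26 among the lower ones, against 0.03 over all genes tested. The rule fixes the direction of both member medians. A difference of at least 1 was reached by 1012 higher and 1533 lower genes, and one of at least 3 by 149 and 183. The gap between the nearest treated and untreated libraries was at least 1 on the log2 scale for 265 higher and 544 lower genes. Ints3 lay just inside the rule, its lowest treated and highest untreated library both rounding to 14405, and Vnn3 just outside it, with 0, 1.15, 545 and 611 in treated libraries and 0 in all 4 untreated ones.

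The gap between treated and untreated libraries was widest upward for Retnla, Ear1, Ear2 and Lcn2. Retnla, a secreted resistin-like protein (mm9 chr16:48842665-48844574), had 976 and 706 pseudo-counts at clonal expansion, then 2282 and 809.5 at differentiation, against 0 and 0 at proliferation and 0 and 0.94 at quiescence. Being at or near 0 in untreated cells, it is given no fold. Ear1, a ribonuclease first described in eosinophils (mm9 chr14:44396431-44397304), had 6969.5, 6150.3, 11513 and 14178 in treated libraries, in the same stage order, against 2.07, 2.14, 9.13 and 19.4 in untreated ones. No treated library came near an untreated one (log2 difference 10.42 ± 0.21 SE, limma adjusted p = 1.16e-09, n = 4 and 4 libraries, 2 per stage). Its neighbour in the family, Ear2, had 159 to 347 in treated libraries and at most 0.35 in untreated ones. Reads of the Ear genes can be shared between near-identical copies, so the split between Ear1 and Ear2 is uncertain.

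**Figure D1:**
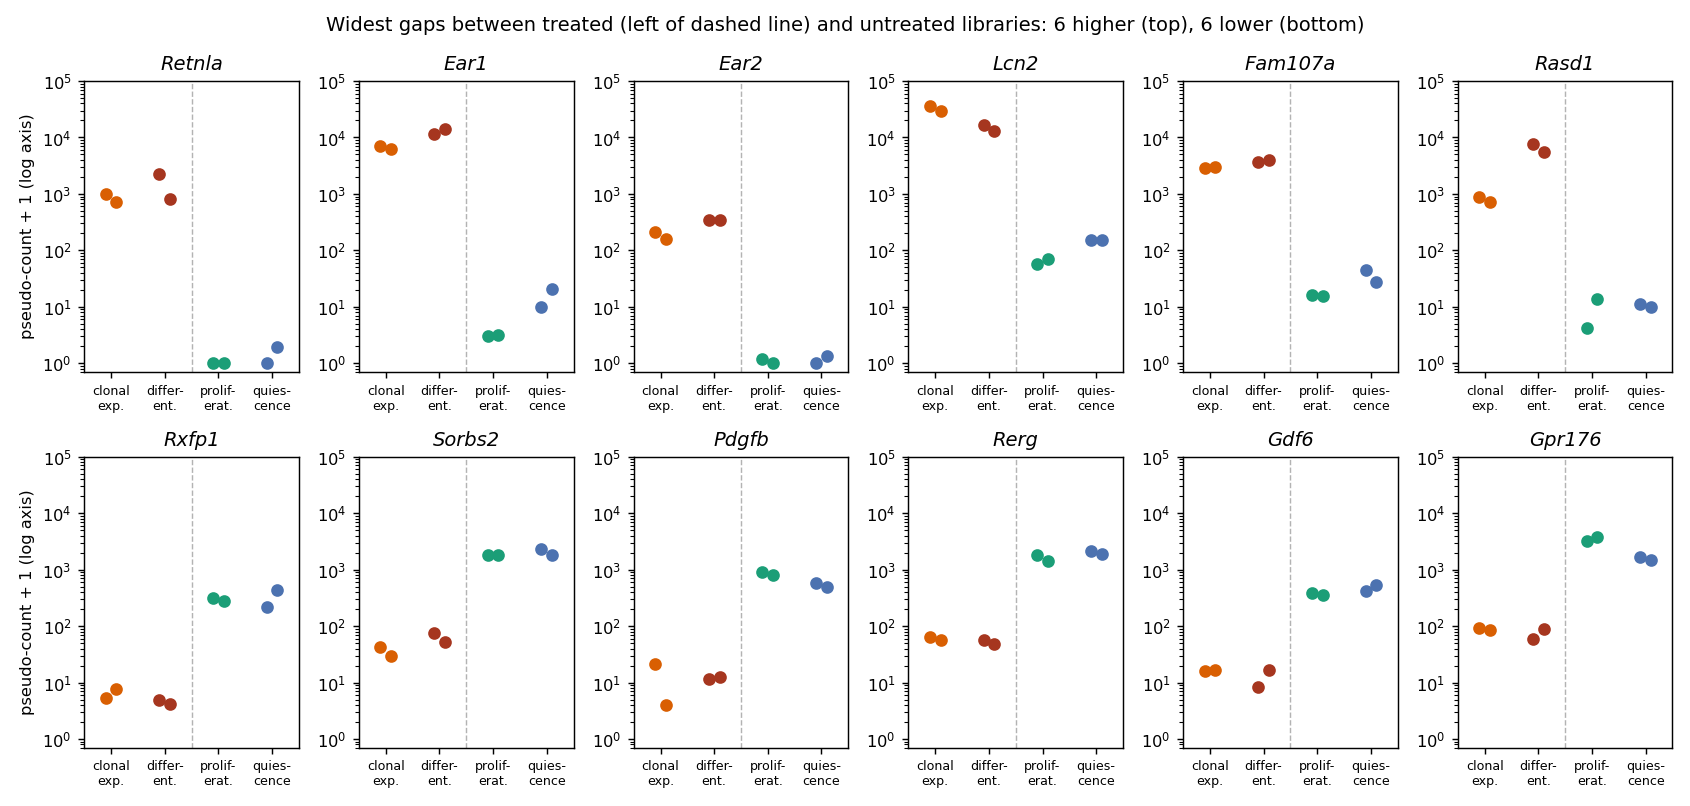
Pseudo-counts plus 1 (log axis) in each library for the 6 genes with the widest gap upward (top) and downward (bottom), with the 2 treated stages left and the 2 untreated stages right of the dashed line and 1 point per library. Ear1 sits between 6150.3 and 14178 in treated libraries and at or under 19.4 in untreated ones, and Rxfp1 at 3.1 to 6.79 in treated libraries and 217 to 431 in untreated ones.

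Lcn2, lipocalin 2, a secreted carrier of siderophores and lipids, had 35998, 29375, 16541 and 12812 in treated libraries, against 55.8, 68.6, 153 and 149.8 in untreated ones (log2 difference 7.80 ± 0.12, adjusted p = 2.17e-10). Glul, glutamine synthetase, had 63080.4, 55954, 147842 and 162869 in treated libraries, against 3164, 2919.9, 2990.4 and 2565 in untreated ones (5.05 ± 0.08). Both stood clear of the untreated range at either treated stage, Lcn2 higher at 10 hours and Glul higher at 6 days. Krt23, a keratin of epithelial cells, had 615, 536, 106 and 58 in treated libraries and at most 1.04 in untreated ones, and Alpl, the tissue-nonspecific alkaline phosphatase of bone and liver, 6513, 5349, 2078 and 2153 against 51.2, 27.3, 98.1 and 72.9. Serpina3m, a secreted protease inhibitor with close copies, rose likewise (5.86 ± 0.22), and so did the angiogenin-like ribonucleases Ang3 (7.69 ± 0.21) and Ang4 (6.56 ± 0.36), whose reads may also be shared. Asgr2, a subunit of the liver asialoglycoprotein receptor, differed by 5.54 ± 0.27, Mtap7d2, of the microtubule-binding MAP7 family, by 6.52 ± 0.18, and the polycystin-like channel gene Pkd2l1 by 5.28 ± 0.25.

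Markers of blood cells were not higher. Of 20 macrophage and blood markers in the table, 10 could be tested, of which 0 rose and 7 fell. Of the tested ones, 0 were non-overlapping upward and 3 (30%) downward, beside 16.9% and 16.8% of all genes. The summed level of the 20 was 1537 to 4865 in treated and 5116 to 7523 in untreated libraries. The leukocyte marker Ptprc was 0 in all treated libraries and at most 2.73 in untreated ones, Emr1 and Tyrobp did not exceed 1.52 in any library, and Cd3e and Hba-a1 were listed at 0 throughout. The eosinophil granule gene Epx was at most 4.67 in any library. Of 16 epithelial markers, 8 could be tested, of which 5 rose and 1 fell, with a list median of 1.13. Krt14 and Krt19 were non-overlapping upward and Krt5 downward. Krt18, a simple epithelial keratin, had 0.95, 0.022, 1711 and 801 in treated libraries, against at most 2.81 in untreated ones. Epcam was listed at 0 throughout, and the summed level of the 16 ran between 1722 and 10349 in treated and between 727 and 2948 in untreated libraries. Their part in the rise of Krt23 was not tested.

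Genes known to answer to glucocorticoids were higher at both treated stages. Of 37 on a list of such genes, 28 rose and 5 fell by the test, 22 were non-overlapping upward and 1 downward, and the list median was 2.35. The 22 are 59.5% of the list, beside 16.9% of all genes. The list medians were 2.04 at clonal expansion and 1.67 at differentiation, each against the same untreated libraries. Fam107a, an actin-bundling stress protein, had 2897, 2980.2, 3745 and 4014 in treated libraries, against 15.2, 14.7, 43.8 and 26.6 in untreated ones (7.16 ± 0.16). Rasd1, a Ras-like protein named for its induction by dexamethasone, had 879.6, 709, 7778 and 5575 in treated libraries, against 3.17, 12.6, 10.2 and 8.9 in untreated ones (adjusted p = 2.39e-08). Fam107a was level across the treated stages, whereas Rasd1 was higher again at 6 days by 3.06.

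Fkbp5, the co-chaperone that restrains the glucocorticoid receptor, had 85567, 82102, 42768 and 37687 in treated libraries, against 7563, 7856, 5688 and 5563 in untreated ones (3.14 ± 0.07). Tsc22d3, the leucine zipper GILZ, had 67822, 70571, 19952 and 22137 in treated libraries, against 6986, 5544, 9342 and 8594 in untreated ones (2.35 ± 0.09). Both were highest at 10 hours and still above every untreated library at 6 days. Hsd11b1, which regenerates active glucocorticoid inside the cell, ran the other way, with 457, 289.9, 71045 and 61126 in treated libraries, against 43.7, 41.4, 171 and 174 in untreated ones. Zbtb16, a zinc finger repressor, rose by 5.58 ± 0.21, the period gene Per1 by 1.61 ± 0.08 and the transcription factor Klf9 by 1.44 ± 0.07. The metallothioneins Mt2 (4.17 ± 0.10) and Mt1 (2.73 ± 0.10), zinc-binding proteins, were both highest at 10 hours. Nr3c1, the receptor itself, overlapped between arms, with 10887, 11247, 27942 and 27029.7 in treated and 26342, 25163, 24479 and 36781 in untreated libraries, low at clonal expansion only. Ccl2, a monocyte chemokine that glucocorticoids repress, was the member that separated downward, with 6259, 5158, 282 and 263 in treated libraries against 7168 to 15255 in untreated ones.

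**Figure D2:**
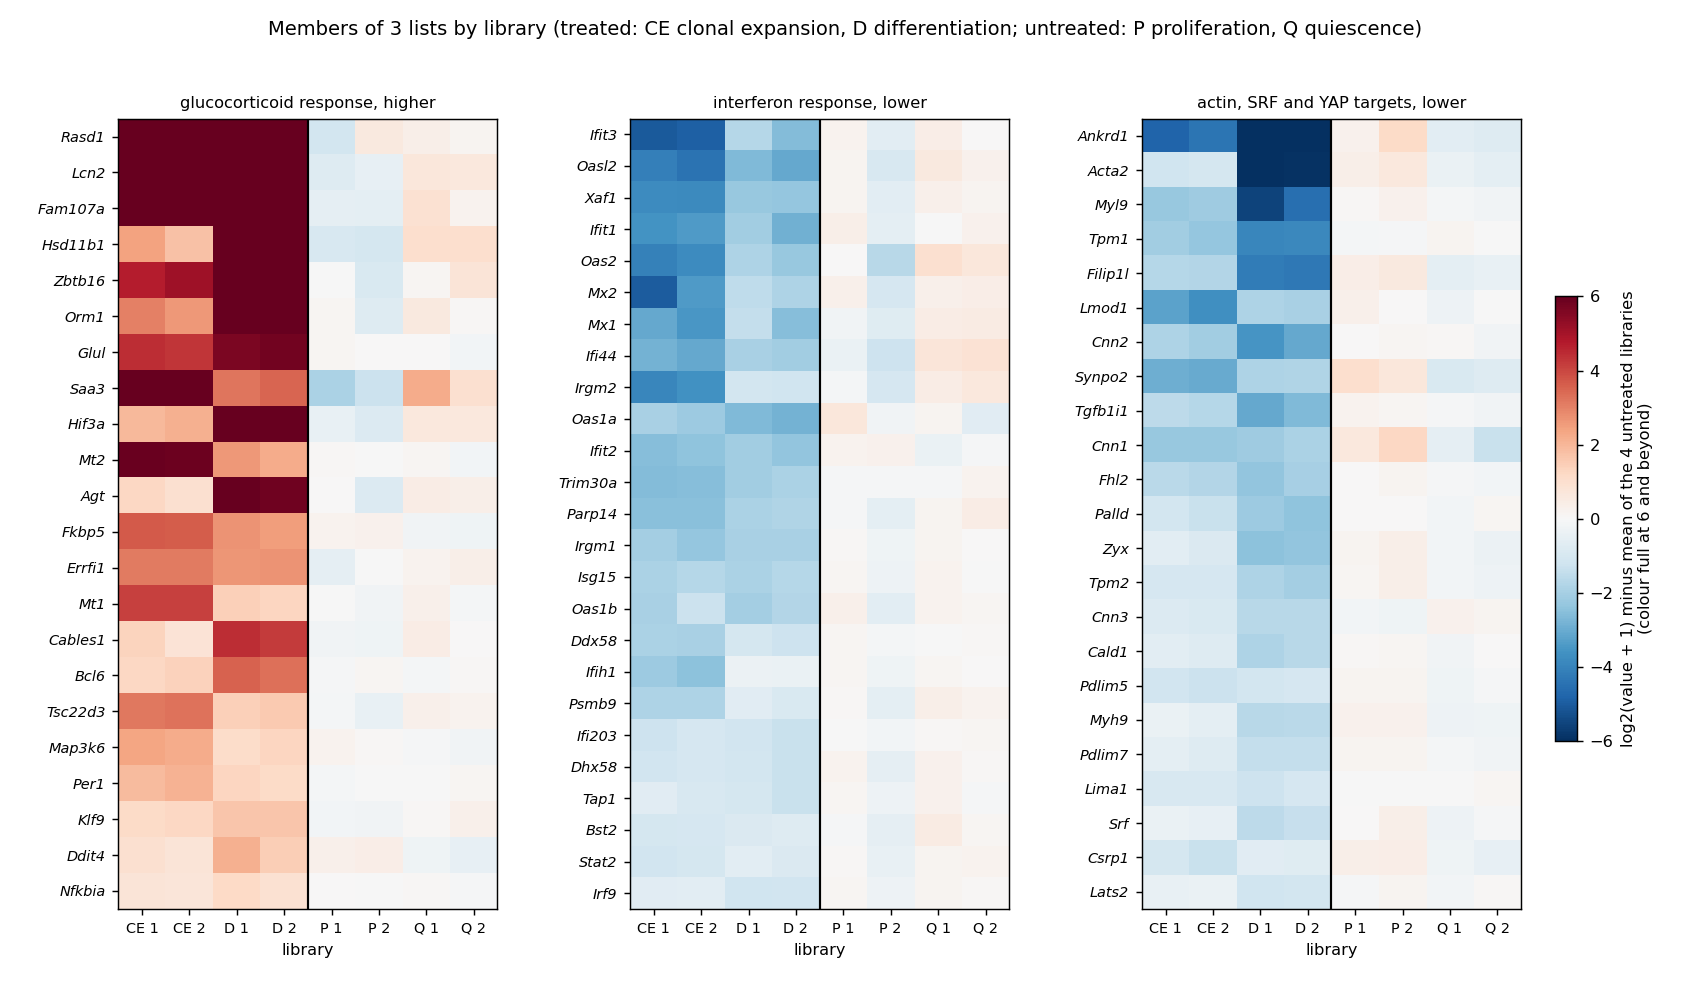
Log2(value + 1) of each library minus the mean of the 4 untreated libraries, for the non-overlapping members of 3 gene lists, one row per gene and one column per library, treated libraries left of the black line. The 22 glucocorticoid genes shown are above, and the 25 interferon and 23 actin genes below, the untreated range, which the choice of non-overlapping genes fixes.

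The cyclic AMP list was split. Of 34 genes tested, 15 rose and 15 fell, 9 (26.5%) were non-overlapping upward and 3 (8.82%) downward, beside 16.9% and 16.8% of all genes. The downward count was 5 without the second clonal expansion or the second quiescence library and 6 under either other scaling, and the median of 0.12 became -0.10 with the same total per library. Rgs2, which damps G protein signalling, had 30029, 24850.0, 40097 and 36638 in treated libraries, against 2538, 2361, 2357 and 2230.3 in untreated ones (3.77 ± 0.08, adjusted p = 1.5e-09). The treated libraries lay far above the untreated ones and were close to each other. The orphan receptor gene Nr4a3 had 215, 194, 17.2 and 12.4 in treated libraries and 5.22 to 9.31 in untreated ones, close to the untreated range at 6 days. The phosphodiesterases Pde4b (1.53 ± 0.11), Pde7b (2.03 ± 0.15) and Pde3b (3.26 ± 0.08) rose, the first more at 10 hours and the last at 6 days, when it reached 29654 and 26419 against 545 to 609 in untreated libraries. Downward, the immediate early gene Fosb had 113, 99, 255 and 233 in treated libraries, against 529, 2203, 543 and 555 in untreated ones, and the adenylate cyclase Adcy7 fell by 1.86 on the log2 scale.

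Of 38 insulin signalling genes, 20 rose and 13 fell, with 9 (23.7%) non-overlapping upward and 3 (7.89%) downward, beside 16.9% and 16.8% of all genes. The downward count was 5 without the first quiescence library or with quantile normalization and 6 with the same total. Irs2, an adaptor of the insulin receptor, had 7655, 9287, 14354 and 14947 in treated libraries, against 3790.2, 3425, 2548 and 3842 in untreated ones (1.73 ± 0.12). Hk2, the hexokinase that traps glucose, had 23079.7, 22333, 72584 and 61611, against 4283, 5174, 3548 and 3684 in untreated ones (3.24 ± 0.08). Both were clear of the untreated range at 10 hours and higher again at 6 days. Tbc1d4, which gates GLUT4 vesicles, rose (2.09 ± 0.09), while the mTOR inhibitors Tsc1 (-0.47 ± 0.08) and Tsc2 (-0.41 ± 0.07) fell slightly. Irs1 and the insulin receptor gene Insr overlapped: Irs1 had 3450.5 and 3868 at clonal expansion, then 21544 and 27825 at differentiation, against 18555 to 31601 in untreated libraries.

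Among regulators of fat cell formation, 23 of 39 promoting genes rose and 11 fell. Non-overlapping were 9 (23.1%) and 4 (10.3%), beside 16.9% and 16.8% of all genes. The treated stages differed in direction. At clonal expansion 14 were called higher and 20 lower than the untreated stages (median -0.29), and at differentiation 30 and 5 (median 1.14). Cebpb, the early C/EBP factor, had 27886, 21541, 12069 and 11480.5 in treated libraries, against 4032, 3996, 5478 and 4051 in untreated ones (1.97 ± 0.11, adjusted p = 1.88e-07). It lay clear of the untreated range at both stages and was higher at 10 hours. The late factors behaved otherwise. Pparg had 5392 and 4295 at clonal expansion, then 71292 and 65599 at differentiation, against 4685 to 6455 in untreated libraries, and Cebpa 2577 and 2018, then 76421 and 80355, against 1604 to 4576. Neither met the rule, since the 10-hour libraries lay within or near the untreated range. Mlxipl, the glucose-sensing factor ChREBP, had 8.88, 10.5, 2406 and 2618 in treated libraries and 1.05 to 6.49 in untreated ones. Bmp4, a ligand that commits cells to the fat lineage, fell to 0, 0, 4.2 and 3.1 in treated libraries, against 16.1 to 32.1 in untreated ones.

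Of 41 genes that hold back adipogenesis, 29 fell and 5 rose, with 16 (39%) non-overlapping downward, beside 16.8% of all genes. The GATA factors, which repress Pparg, were among them. Gata2 had 1443, 1599.5, 198 and 300.4 in treated libraries, against 3832, 4099, 5381 and 5275 in untreated ones (-2.91 ± 0.13). Gata3 had 139, 140.4, 204 and 159 in treated libraries, against 722 to 1299 in untreated ones (-2.56 ± 0.12). The hedgehog effector Gli1 (-2.60 ± 0.11), the repressor Snai2 (-2.34 ± 0.07) and the skeletal regulators Runx2 (-1.78 ± 0.08) and Sox9 (-1.97 ± 0.08) fell at both stages. Dlk1, a preadipocyte surface protein, overlapped, with 466642 and 415846 at clonal expansion, then 43216 and 51599 at differentiation, against 310009 to 564051 in untreated libraries.

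Fat cell and lipid genes rose, mostly by 6 days. Of 38 adipocyte markers 37 rose, yet 12 (31.6%) were non-overlapping upward, beside 16.9% of all genes. The list median was 0.46 at 10 hours and 8.06 at 6 days. Scd1, the stearoyl-CoA desaturase, had 172657, 155802, 6271887 and 6282703 in treated libraries, against 34138, 31916, 11128 and 10682 in untreated ones (5.74 ± 0.08, adjusted p = 1.52e-10). Fasn, the fatty acid synthase, had 148765, 148015, 720036 and 830343 in treated libraries, against 83795, 85319, 50448 and 49698 in untreated ones (2.38 ± 0.08). Both had thus left the untreated range within 10 hours. Of 24 fatty acid synthesis genes, 9 (37.5%) were non-overlapping upward and 0 downward. Of 33 triglyceride genes, 30 rose and 9 (27.3%) were non-overlapping upward, among them the acyltransferase Dgat2 (4.76 ± 0.08) and the acyl-CoA synthetase Acsl1 (4.74 ± 0.10). Cidec, a lipid droplet fusion protein, had 509, 522, 476118 and 550539 in treated libraries, against 35, 16.3, 353 and 262 in untreated ones. Fabp4 and Adipoq overlapped, their 10-hour values of 2115 to 2351 and 397 to 422 lying within the untreated ranges of 1736 to 2739 and 25.7 to 910.2.

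Mitochondrial energy genes rose broadly. Of 74 oxidative phosphorylation genes tested, 71 rose and 0 fell, beside 36.5% and 34.3% of all genes. Non-overlapping upward were 44 (59.5%), beside 16.9% of all genes. With the same total per library 68 rose and 1 fell, and 26 were non-overlapping upward. The list median was 0.36 at clonal expansion and 1.58 at differentiation. Cycs, cytochrome c, had 1426, 1158, 2062 and 2128 in treated libraries, against 228, 278, 246 and 226 in untreated ones (2.75 ± 0.12, adjusted p = 3.55e-08). Cyc1, cytochrome c1 of complex III, had 24747, 23289, 65953 and 67189 in treated libraries, against 11292, 12471, 11734 and 9313 in untreated ones (1.84 ± 0.09). Cycs was already near its later level at 10 hours, and Cyc1 had covered less of the way. Uqcrfs1, the Rieske protein of complex III, rose by 1.75 ± 0.09, and Atp5b, the beta subunit of ATP synthase, by 1.61 ± 0.09. Of 49 genes that run the citric acid cycle or oxidise fatty acids, 40 rose and 18 (36.7%) were non-overlapping upward (11 with the same total). Cpt1a, which admits fatty acids to mitochondria, was non-overlapping downward, with 5492 to 6666 in treated and 12126 to 15701 in untreated libraries.

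Promoters of these genes were searched for the cyclic AMP response element TGACGTCA on both strands, in RefSeq windows of 300 bases on GRCm38.p6, from 250 before to 50 after the start. It was in the windows of 4 of 37 non-overlapping oxidative phosphorylation genes (10.8%), of 4.4% of all higher and 2.54% of all lower non-overlapping genes, and of 3.18% of all tested genes with a window. It was in 0 of 7 non-overlapping higher genes of the cyclic AMP list, 0 of 18 of the glucocorticoid list, 1 of 7 of the clock list and 1 of the 50 genes with the widest gaps upward. Its shorter core, TGACG, was in 4 of the 7 cyclic AMP genes, 5 of the 18 glucocorticoid genes and 5 of the 7 clock genes. That core was in 38.3% of all higher and 23.4% of all lower non-overlapping genes, and in 30.6% of all tested genes. This lean was not particular to it. The E-box CACGTG, also searched, was in 11.1%, 7.56% and 9.81% of the same groups. For the NF-Y box CCAAT these shares were 39.5%, 36.9% and 38.9%, and for the AP-1 element TGANTCA 4.84%, 6.5% and 5.45%. The glucocorticoid receptor half-site AGAACA, searched the same way, was in 0 of 18 higher glucocorticoid genes, against 12.6% of all tested genes. The 2 complex III and cytochrome c genes described above that hold TGACGTCA are shown with 30 bases on either side and that element in capitals. They are Cycs from chr6:50566701-50566768 (minus strand) and Uqcrfs1 from chr13:30545308-30545375 (minus strand). A match is a string of letters, not evidence of binding.
Cycs: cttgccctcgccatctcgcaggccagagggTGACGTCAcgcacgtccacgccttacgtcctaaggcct
Uqcrfs1: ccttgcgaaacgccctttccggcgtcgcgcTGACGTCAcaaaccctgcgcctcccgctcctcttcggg

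Lists of other growth and secretion genes had more members called higher than lower. Of 39 endoplasmic reticulum folding genes, 29 rose and 21 (53.8%) were non-overlapping upward, beside 16.9% of all genes, or 12 with the same total. Xbp1, a transcription factor of the unfolded protein response, had 24739, 23177, 60897 and 54036 in treated libraries, against 6809.9, 7635, 10423 and 8755 in untreated ones (2.16 ± 0.08). Of 37 glycolysis and glycogen genes, 26 rose and 16 (43.2%) were non-overlapping upward, including the lactate carrier Slc16a1 (2.34 ± 0.08). Of 51 ribosome biogenesis genes, 48 rose, but their median was 1.61 at 10 hours and 0.04 at 6 days. Of these, 13 (25.5%) were non-overlapping upward, 23 without the second proliferation library and 2 with the same total per library. Myc, which drives ribosome genes, had 31529, 30707, 10325 and 11533 in treated libraries, against 4695, 7908, 3062 and 2794 in untreated ones (2.13 ± 0.14). The glutamine carrier Slc1a5 rose by 2.32 ± 0.09 and mitochondrial superoxide dismutase, Sod2, by 2.20 ± 0.07. Of 22 clock genes, 13 rose and 7 fell, and 9 (40.9%) were non-overlapping upward and 0 downward, beside 16.9% and 16.8% of all genes. The list median was 0.18 at 10 hours and 0.81 at 6 days, and differentiation against clonal expansion called 12 members higher and 5 lower. Cry1 (1.79 ± 0.07), Per2 (1.76 ± 0.10) and the repressor Nfil3 (2.55 ± 0.07) rose, and unlike the list median they were higher at 10 hours than at 6 days.

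**Figure D3:**
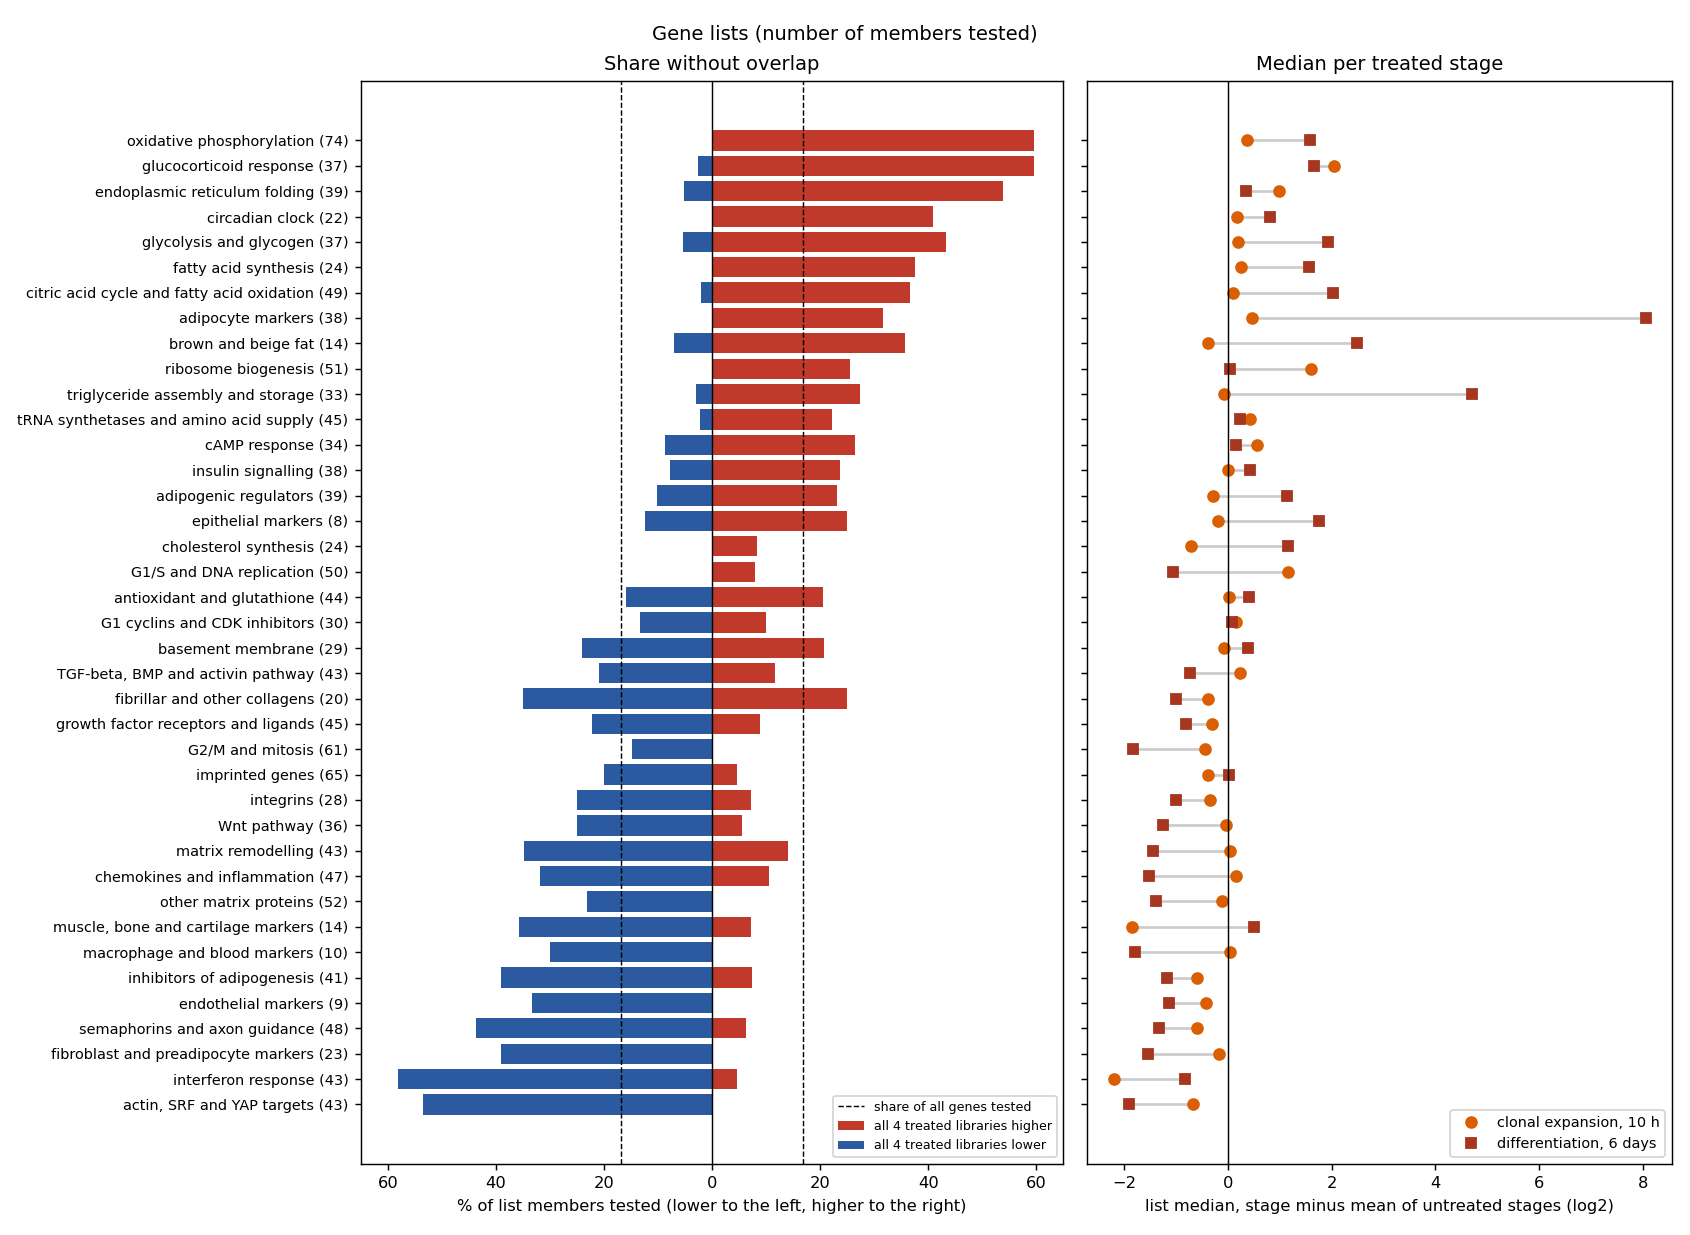
Left, the share of each list's tested members whose 4 treated libraries were all higher (red, to the right) or all lower (blue, to the left) than the 4 untreated ones, with dashed lines at 16.9% and 16.8%, the shares of all genes tested. Right, each list's median log2 difference from the mean of the untreated stages at 10 hours (circles) and 6 days (squares), 2 comparisons that share their untreated libraries. Of the lists drawn, oxidative phosphorylation and glucocorticoid genes have the largest shares upward (59.5% each), and interferon (58.1%) and actin genes (53.5%) the largest downward.

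The gap was widest downward for Rxfp1, Sorbs2, Pdgfb and Rerg. Rxfp1, the relaxin receptor (on mm9 chromosome 3), had 4.25, 6.79, 3.97 and 3.1 pseudo-counts in treated libraries, against 313, 274, 217 and 431 in untreated ones (log2 difference -5.80 ± 0.27, adjusted p = 5.41e-08). Pdgfb, a platelet-derived growth factor chain, had 20, 2.93, 10.5 and 11.3 in treated libraries, against 926, 803, 576 and 484 in untreated ones (-6.02 ± 0.42). Gdf6, a BMP-type ligand, had 15.1, 15.5, 7.45 and 15.4 in treated libraries, against 379.8, 359, 421 and 525 in untreated ones (-4.92 ± 0.23). All 3 were down at 10 hours and differed little between the treated stages. Sorbs2, an actin-linked adaptor (-5.35 ± 0.17), Rerg, a small GTPase (-5.01 ± 0.14), the orphan receptors Gpr176 (-4.89 ± 0.15) and Gpr39 (-4.48 ± 0.21), and the neuropeptide Y receptor Npy1r (-4.01 ± 0.17) followed. Aldh1a3, which makes retinoic acid, had 64, 76.1, 59.2 and 103 in treated libraries, against 1041, 1336, 1194 and 1679 in untreated ones (-4.11 ± 0.20).

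Genes of the contractile cytoskeleton were lower at both treated stages. Serum response factor (SRF) and YAP drive many of them when actin is assembled and cells are under tension. Of 43 tested, 41 fell and 0 rose, and 23 (53.5%) were non-overlapping downward, beside 16.8% of all genes. Their list median was -0.68 at 10 hours and -1.91 at 6 days. Ankrd1, a YAP target, had 29, 39.4, 12.6 and 7.25 in treated libraries, against 1001, 1890.3, 538 and 497 in untreated ones (-5.46 ± 0.24, adjusted p = 4.44e-08). Acta2, smooth muscle actin, had 63633, 70349, 1639 and 2416 in treated libraries, against 186619, 229035, 110560.3 and 98995 in untreated ones (-3.67 ± 0.12). Tpm1, a tropomyosin, had 34526, 29901, 9663 and 9984 in treated libraries, against 137921, 139337, 166578 and 146791 in untreated ones (-3.05 ± 0.08). Ankrd1 had fallen most of the way at 10 hours, and Acta2 mostly later. Tagln overlapped, its 10-hour values of 4517 and 5276 lying in the untreated range of 3971 to 17311. The SRF motif known as the CArG box was in the windows of 5 of 22 non-overlapping members (22.7%), against 1.32% of all tested genes. The list was written to include SRF targets, so nothing is read from this share. Myl9, a myosin light chain, had 2975, 3230.0, 300.3 and 616 in treated libraries and 12098 to 17122 in untreated ones (-3.62 ± 0.18), and its window (chr2:156775273-156775342, plus strand) is shown with that box in capitals.
Myl9: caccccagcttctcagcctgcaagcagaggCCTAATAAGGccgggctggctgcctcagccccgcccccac

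Matrix genes moved in both directions. Of 20 fibrillar and other collagens, 7 rose and 11 fell, with 5 (25%) and 7 (35%) non-overlapping, beside 16.9% and 16.8% of all genes. The upward count was 2 under either other scaling. Of 29 basement membrane genes, 12 rose and 10 fell, with 6 and 7 non-overlapping, and the median of 0.15 became -0.10 with the same total per library. The downward count was 3 among genes with a mean of at least 100. Both collagen IV chains shown rose: Col4a1 had 1715616, 1672252, 718138 and 784781 in treated libraries, against 247929.9, 239681, 299883 and 307167 in untreated ones (2.05 ± 0.10), and Col4a2 differed by 1.94 ± 0.09. Col6a3 (1.27 ± 0.12) rose too. The fibril-forming Col1a1 lay only just below, with 325354 to 736184 in treated and 749172 to 1397193 in untreated libraries, and Col8a1, a short-chain collagen, fell by 3.99. Of 52 other matrix proteins, 36 fell and 8 rose, with 12 (23.1%) non-overlapping downward and 0 upward. Their median was -0.11 at 10 hours and -1.39 at 6 days. Thbs1, thrombospondin 1, had 16705, 12703, 6699 and 11964 in treated libraries, against 195897, 228214, 110212 and 140216 in untreated ones (-3.83 ± 0.17). Of 43 remodelling genes, 28 fell, among them the gelatinase Mmp9 (-3.16 ± 0.16) and the plasminogen activators Plau (-3.14 ± 0.13) and Plat (-2.75 ± 0.11), while Adamts15, a versican-cleaving protease, rose, with 3076 to 24289.8 in treated and 482 to 1046 in untreated libraries. The remodelling list had a median of 0.05 at 10 hours and -1.45 at 6 days. Of 28 integrins and related receptors, 16 fell and 7 rose, with 7 (25%) non-overlapping downward, or 12 with the same total. Itga11, which binds collagen I, fell by 2.82, and Itga6, which binds laminin, rose by 2.70.

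Interferon-stimulated genes, which cells make against viruses, were lower at both treated stages. Of 43 tested, 37 fell and 5 rose, and 25 (58.1%) were non-overlapping downward, beside 16.8% of all genes. Their median was -2.20 at 10 hours and -0.83 at 6 days. Ifit3, one of the IFIT antiviral proteins, had 23.5, 26.2, 244 and 134 in treated libraries, against 919.6, 513, 1079.9 and 833 in untreated ones (-3.56 ± 0.24, adjusted p = 5.37e-07). Isg15, a ubiquitin-like protein, had 297, 348, 306 and 341 in treated libraries, against 1223, 903, 1298 and 1122 in untreated ones (-1.80 ± 0.13). Ifit3 was lowest at 10 hours, whereas Isg15 was level across the treated stages. Oasl2 (-3.56 ± 0.24), Xaf1 (-3.04 ± 0.17), Ifit1 (-2.99 ± 0.24) and the GTPase Ifi47 (-5.31 ± 0.30) followed Ifit3. Ifi204 and Ifi205, DNA-binding proteins of another family, rose, with 98, 74.4, 83.2 and 117 for Ifi205 in treated libraries, against 10.1 to 17.7 in untreated ones. Reads of the Ifit and Ifi20 families may be shared between copies.

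The core of the interferon-stimulated response element, TTCNNTTTC on either strand, was in the promoter windows of 12 of 19 non-overlapping lower interferon genes (63.2%), against 7.08% of all tested genes and 8.51% of all lower ones. This motif was chosen after these genes were known to be lower. The list was also written to hold interferon-stimulated genes, so nothing is read from its share. Windows of 3 of them are shown with the matches in capitals and 30 bases on either side, Isg15 from chr4:156200846-156200926 (minus strand), Ifit1 from chr19:34640750-34640843 and Ifit3 from chr19:34583344-34583465 (plus strand). Each holds 3 matches, some overlapping, and those of Isg15 are on the opposite strand.
Isg15: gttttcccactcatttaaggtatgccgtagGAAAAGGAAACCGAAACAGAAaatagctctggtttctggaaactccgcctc
Ifit1: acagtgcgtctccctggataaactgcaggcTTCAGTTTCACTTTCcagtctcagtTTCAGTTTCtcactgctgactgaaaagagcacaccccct
Ifit3: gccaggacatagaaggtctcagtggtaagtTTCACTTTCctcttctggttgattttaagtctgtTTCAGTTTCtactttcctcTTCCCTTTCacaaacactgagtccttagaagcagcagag

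Lists of signals between cells moved in both directions, and their downward shares are to be read beside 16.8% of all genes. With the same total per library 6970 of all genes fell and 3626 rose. The list medians were lower at 6 days than at 10 hours, though many falls were called at both. Called lower than the untreated stages at 10 hours and at 6 days were 21 and 24 growth factor genes. For semaphorin and axon guidance genes these counts were 32 and 36, and for Wnt genes 15 and 23. Growth factor genes had a list median of -0.30 at 10 hours and -0.81 at 6 days. For semaphorin and axon guidance genes these were -0.60 and -1.32, and for Wnt genes -0.03 and -1.26. Of 47 chemokine and inflammation genes, 27 fell and 16 rose, with 15 (31.9%) and 5 non-overlapping. At 10 hours 22 were called higher and 17 lower than the untreated stages (median 0.16), and at 6 days 13 and 31 (median -1.53). The receptor Tlr2 fell (-2.15 ± 0.09), as did the chemokine Ccl9 (-2.43 ± 0.13), while Saa3, an acute phase protein, had 1514, 1257, 127 and 155 in treated libraries, against 2.68, 4.61, 63.4 and 26 in untreated ones. Of 45 growth factor genes, 24 fell and 10 rose, with 10 (22.2%) non-overlapping downward. Igfbp4, a binding protein of insulin-like growth factors, had 79365 to 131818 in treated libraries, against 3218 and 1992 at proliferation and 60793 and 55734 at quiescence. Of 48 semaphorin and axon guidance genes, 37 fell and 21 (43.8%) were non-overlapping downward, including Plxnb1, a semaphorin receptor (-2.87 ± 0.09), and Epha4, an ephrin receptor (-2.81 ± 0.09). Of 36 Wnt genes, 24 fell and 7 rose, with 9 (25%) non-overlapping downward. Among its members were the decoys Sfrp2 (-3.20 ± 0.14) and Dkk3 (-2.16 ± 0.15), which fell, and the co-receptor Lrp5 (1.31 ± 0.09), which rose. Of 43 genes of the TGF-beta and BMP pathway, 22 fell and 13 rose, with 9 (20.9%) non-overlapping downward. At 10 hours 21 were called higher and 14 lower than the untreated stages (median 0.23), and at 6 days 11 and 26 (median -0.73). Grem1, a BMP antagonist, fell by 4.10, while Nog, another BMP antagonist, had 1279, 1169, 521 and 576 in treated libraries, against 74.2, 179, 37.9 and 47.3 in untreated ones (3.53 ± 0.24).

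Cell cycle genes differed between the treated stages. Of 50 G1/S genes, 4 (8%) were non-overlapping upward, or 7 without the second proliferation library, and 0 downward. Both shares are below the 16.9% and 16.8% of all genes. The list medians were 1.15 at 10 hours and -1.06 at 6 days. Ung, which removes uracil from DNA, had 5729, 5908, 2707 and 1988 in treated libraries, against 649, 956, 562 and 438 in untreated ones (2.55 ± 0.15), and Ccne1, cyclin E1, rose by 1.43 ± 0.12. Of 61 G2/M genes, 57 fell and 9 (14.8%, beside 16.8% of all genes) were non-overlapping downward, or 14 without the second quiescence library or with the same total. Their median was -0.44 at 10 hours, when 8 were called higher and 33 lower than the untreated stages, and -1.83 at 6 days. The mitotic kinesin Kif23 had 2527, 1974, 516 and 492 in treated libraries, against 8266, 11552, 4020.4 and 3001 in untreated ones (-2.46 ± 0.14). Of 30 G1 cyclins and inhibitors of cyclin-dependent kinases, 13 rose and 13 fell, with a median of 0.18. Non-overlapping were 3 (10%) upward and 4 (13.3%) downward, below the 16.9% and 16.8% of all genes. The upward count was 1 under either other scaling and 5 without the second proliferation library. Cyclin D3, Ccnd3, rose (0.86 ± 0.09). The inhibitors Cdkn1b (-0.98 ± 0.07) and Cdkn2b (-1.22 ± 0.08) and the growth arrest gene Gas1 (-1.56 ± 0.10) were lower in all treated libraries. Of 65 imprinted genes, 13 (20%) were non-overlapping downward, near the 16.8% of all genes, and 3 upward, or 1 with the same total per library. Igf2, a fetal growth factor, overlapped, with proliferating cells low and quiescent cells near the treated levels. It had 40685 to 94462 in treated libraries, against 1919 and 2295 at proliferation and 54325 and 70440.4 at quiescence.

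The 2 treated stages did not share their levels in full. Differentiation against clonal expansion called 861 of the 2472 higher genes higher and 614 lower, beside 36.8% and 36.2% of all genes tested. Among the 2459 lower genes it called 612 higher and 814 lower. The members with no call were 40.3% of the higher and 42% of the lower genes, against 27% of all genes, but the rule itself limits how far apart the treated stages of a member can lie, so nothing is read from this. Ghrh, growth hormone-releasing hormone, had 2.38 and 5.94 at clonal expansion, then 8947 and 4044 at differentiation, against 0 to 2.13 in untreated libraries. Thrsp, a lipogenic protein, had 47.6 and 64.6, then 87244 and 119623, against 10.7 to 43.7. Prg4, the joint lubricant lubricin, went the opposite way, with 11369.9 and 12834, then 778 and 679, against 29.5 to 53. Glrx5, of iron-sulfur cluster assembly, was level, with 14741, 12967, 13049.9 and 14593 in treated libraries, against 3260.1 to 4989 in untreated ones (1.66 ± 0.12). Marcks, a membrane-bound actin regulator, was level too, with 31568, 28297, 25759 and 34459 in treated libraries, against 80337 to 148231 in untreated ones (-1.85 ± 0.10).

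**Figure D4:**
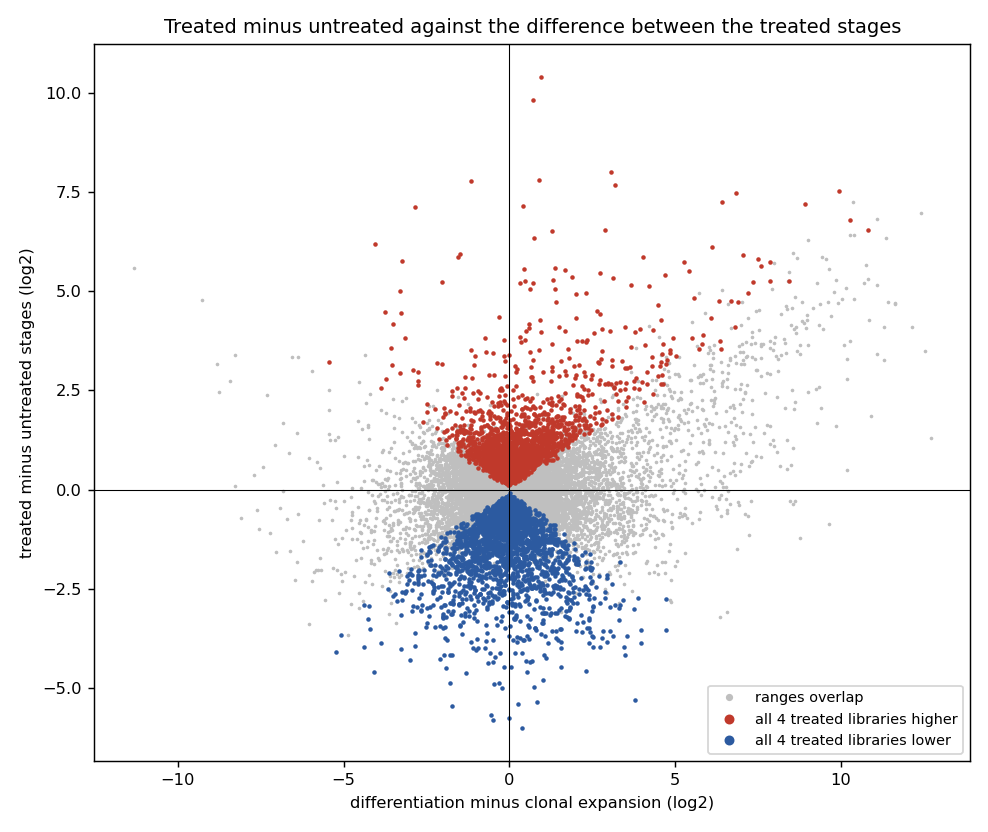
Treated minus untreated stages (vertical, log2) against differentiation minus clonal expansion (horizontal, log2) for the 14647 genes tested, 1 point per gene, with the 2472 genes higher in all 4 treated libraries in red and the 2459 lower ones in blue. The wedge shape follows from the rule, and the red genes far to the right, such as Cidec at 7.54 and 9.95, are those much higher at 6 days than at 10 hours.

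Set against the same untreated libraries, clonal expansion alone gave 5188 higher (35.4%) and 5166 lower (35.3%) calls over all genes, and differentiation alone 5270 (36%) and 5162 (35.2%). Among the non-overlapping genes, 2320 of 2472 were called higher at clonal expansion and 2311 at differentiation, and 2315 and 2342 of 2459 were called lower. The rule, which used the same libraries, largely fixes these counts, so nothing is read from them. The untreated stages differed less: quiescence against proliferation called 1740 genes higher (11.9%) and 1732 lower (11.8%). Without the second proliferation library these were 659 and 641. Of the higher non-overlapping genes it called 171 higher and 195 lower, and of the lower ones 293 and 241. Rgs8, a regulator of G protein signalling, shows such a difference among the lower genes, with 50, 45.5, 34.6 and 26.8 in treated libraries, against 493 and 278 at proliferation and 1774 and 1818 at quiescence.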

How the data were processed

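RNA was sequenced from 8 libraries of 3T3-L1 cells, 2 per stage, with unstranded TruSeq kits and single reads, per the labels' protocols. Each deposited value is a signal, the pseudo-count of a gene, which the authors obtained with edgeR by rescaling read counts, labelled as RLE scaling. The submitters' processing notes name CASAVA 1.8.2, edgeR and mm9. The aligner and gene models are not given in the sources used here. Because pseudo-counts are not raw counts, no count test was run, raw depth is unknown and no counting interval is given.

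Values were taken as log2(value + 1) and genes with a mean of at least 10 were kept (14647). With 2 libraries per stage, limma 3.58.1 (R 4.3.3), with trended variance, fitted the 4 stage means over all 8 libraries. The comparisons were treated minus untreated stages, differentiation minus clonal expansion, quiescence minus proliferation, and each treated stage minus the untreated mean, all two-sided with Benjamini-Hochberg adjustment over all tested genes at 0.05. Fold changes on this scale understate changes of low genes. The fit was tested on simulated data. Tables and figures were made with Python 3.11.15, pandas 2.3.3, numpy 2.4.6 and matplotlib 3.10.9.

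The genes and the gene lists were chosen with earlier results of these data known, so list counts are descriptions. Genes were named by rule: the widest gaps and largest changes whose higher arm averaged at least 200, up to 4 per list and direction, and a short hand-written set of genes. The ribonuclease, Serpina3 and granule families were chosen after their values were seen, as was the interferon motif. Gene coordinates are mm9 as deposited, and promoter windows and sequences are from RefSeq on GRCm38.p6. Of the tested genes, 11440 had a window. Alternatives were 2 other scalings, pseudocounts of 0.5 and 10, a mean of at least 100 or no filter, no trend, no stage term, a replicate block, and leaving out each library.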

Additional observations from a re-analysis of the deposited data

Results flagged for a closer look

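For 14 of the named genes, differentiation and clonal expansion differed from each other by limma's test (adjusted p under 0.05) and did not get the same call against the untreated stages. The differences are differentiation minus clonal expansion on the log2 scale. Higher at differentiation were Krt18 by 9.70, Fabp4, a fatty acid carrier, by 8.97, Vnn3 by 8.62, Elane by 6.82, Mpo by 5.47, Cebpa by 5.10, Pparg by 3.83, Irs1 by 2.74, Insr by 2.27 and Nr3c1 by 1.31. Lower at differentiation were Serpina3h, with a difference of -7.43, Dlk1 with -3.22, Ang with -0.70 and Ints3 with -0.45. Of these, Ang and Ints3 separated all treated from all untreated libraries, and the others overlapped. Of the 147 named genes, 123 had a called difference between the treated stages.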

How the results depend on the processing

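Over 17 alternatives, 184 of 190 counts stayed within 1.5 times the reported count. The exceptions were the non-overlapping genes with the same total per library, 1409 higher and 3753 lower, the treated against untreated calls with the stages of an arm pooled, 1731 higher and 1896 lower, and quiescence against proliferation without the second proliferation library, 659 higher and 641 lower. The cause was not tested, except that pooling counts stage differences as spread. Leaving out 1 library in turn gave 2521 to 2781 higher and 2497 to 2764 lower non-overlapping genes, 4896 to 5433 higher and 4641 to 5052 lower treated against untreated calls, 4695 to 5614 and 4611 to 5550 for differentiation against clonal expansion, 659 to 1689 and 641 to 1857 for quiescence against proliferation, 4294 to 5319 and 4426 to 5279 for clonal expansion against untreated stages, and 4349 to 5451 and 4401 to 5221 for differentiation against untreated stages. A stage left with 1 library was assumed to vary like the others.

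The labels number the libraries of each stage as experiments 1 and 2. Deviations of same-numbered libraries correlated at 0.013 to 0.354 over genes, over 0.1 only between quiescence and each treated stage, so the numbers were not taken as pairs. With a replicate block, 5477 genes were higher and 5175 lower in treated against untreated stages. No direction of the 147 named genes reversed. With the stages pooled 35 lost their call, with the same total Ints3 (0.09) and Serpina3h (0.32), and with quantile normalization Ints3 (0.13). With the same total per library, the median of the cyclic AMP list turned to -0.10. Raw depth is unknown, so no limit from counting error could be set.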

Other observations

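Several families of secreted proteins had members far higher in treated libraries. These families were picked after their values were seen, so no test of a family is given. The limma values given above for single members come from the test over all genes. Of 7 eosinophil-associated ribonuclease genes, all on mm9 chromosome 14, 6 were higher in all treated libraries and Ear4 was listed at 0 throughout. Their summed level was 6467 to 14908 pseudo-counts in treated libraries and 12.2 to 36.1 in untreated ones. Of 5 angiogenin family genes on the same chromosome, Ang2, Ang3, Ang4 and Ang6 were higher and Ang was lower, with 178, 166, 104 and 108 in treated libraries, against 266, 187, 255 and 210.4 in untreated ones. Of 11 Serpina3 genes on chromosome 12, 4 met the rule upward (Serpina3c, Serpina3k, Serpina3m and Serpina3n), 4 overlapped and 3 were below the mean of 10. Serpina3n, a secreted protease inhibitor, had 39549, 28879, 8539 and 7874 in treated libraries, against 451, 253, 594 and 549.8 in untreated ones, while Serpina3h had 16575 and 12594 at clonal expansion, then 82.9 and 82.2 at differentiation, against 611 to 889 in untreated libraries. Reads may be shared between copies in all 3 families.

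Of 8 genes best known from neutrophil granules, also picked after their values were seen, 3 were higher in all treated libraries. Another 3 were at or near 0 throughout. Camp, the cathelicidin antimicrobial peptide, had 425, 251, 1050.4 and 1388 in treated libraries, against 8.55, 15.2, 26.1 and 12.4 in untreated ones. S100a8, a calcium-binding alarmin, had 850.2, 658, 849 and 1054 in treated libraries, against 14.4, 9.35, 48.7 and 32.8 in untreated ones. Elane, neutrophil elastase, had 0 and 2.15 at clonal expansion, then 205 and 194 at differentiation, against 0 to 2.79 in untreated libraries, and Mpo, myeloperoxidase, had 0 and 0, then 34.9 and 54.1, against 0 to 0.93. Both overlapped the untreated range at 10 hours. The usual partner of S100a8, S100a9, did not exceed 1.15 in any library, and the granule genes Ltf and Ngp were at most 2.53.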
